A study of Mus musculus with 36 samples.

Results

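The change in quadriceps gene expression between 8 and 12 weeks of age was measured in 2 strains of mice that lack a sarcoglycan. BSG mice are beta-sarcoglycan-deficient and model limb-girdle muscular dystrophy 2E, and GSG mice are gamma-sarcoglycan-deficient and model limb-girdle muscular dystrophy 2C. The comparison rests on 8 of the 36 dual-channel arrays of the series, namely those on which RNA of a 10-week mouse (Cy5) met that of an 8-week mouse (Cy3), and those on which RNA of a 12-week mouse (Cy5) met that of the same 10-week mouse (Cy3). There were 4 such arrays per strain, in 2 closed loops of 9 mice each, so that 12 mice entered, 1 per age and loop. Every mouse carried the deficiency of its strain, and no wild-type array is analysed here. Within a loop the 10-week mouse cancels when both arrays are summed. The sum, here called the summed log ratio, is the log2 ratio of 1 mouse of 12 weeks over 1 mouse of 8 weeks, and the 4 loops are the replicates. Per the study, most ages were taken from littermates, so that both mice of a strain and age may share a litter. Effects of litter cannot be told apart from those of age or strain. The base and the direction of the deposited ratios are not given in the sources used here. They were taken as log2 of Cy5 over Cy3, and this direction is likely, from the order of the channels in the labels. Log ratios carry no absolute level, so that the labelled tissue could not be checked by the level of its markers.

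The sarcoglycans are membrane proteins of the dystrophin-associated glycoprotein complex, which ties the actin cytoskeleton of the muscle fibre to the extracellular matrix. Loss of 1 sarcoglycan takes the others from the membrane, fibres then break, macrophages clear the debris and satellite cells rebuild fibres, with scar matrix laid down where repair lags. In these mice the first rounds of degeneration come in the first weeks of life. The ages of 8 to 12 weeks fall after them, when damage, inflammation and regeneration go on side by side.

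Each oligonucleotide was printed in 2 spots, which agreed unequally between loops. In BSG loop 1 the Pearson correlation of first and second spots over 8129 oligonucleotides was 0.0242 on the 10 over 8 array and -0.0961 on the 12 over 10 array. The same pair of values was 0.656 and 0.482 for BSG loop 2. GSG loop 1 had 0.571 and 0.364. GSG loop 2 had the highest agreement, 0.663 and 0.697. Both arrays of BSG loop 1 thus lay below the range of the 28 other arrays of the series, 0.181 to 0.765, and the other 6 lay within it. The 2 spots differed by more than 1 on the log2 scale for 20.5% of the oligonucleotides on the 12 over 10 array of BSG loop 1 and for 0.443% on the 10 over 8 array of GSG loop 2. For the summed log ratio the correlation between spots was -0.142, 0.684, 0.443 and 0.566 in the loops BSG 1, BSG 2, GSG 1 and GSG 2.

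**Figure D1:**
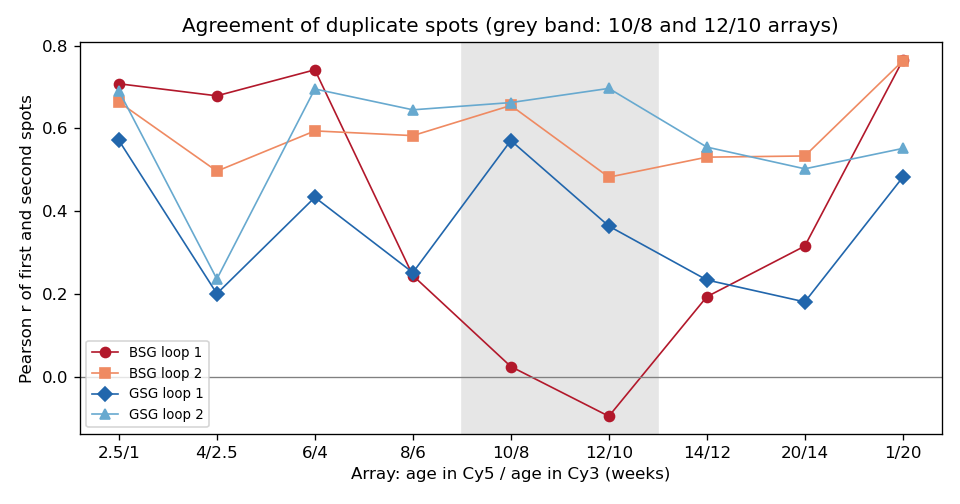
Pearson correlation of first and second spots over 8129 oligonucleotides (y axis) on each of the 36 arrays, ordered by the ages in Cy5 and Cy3 in weeks (x axis), with 1 line per loop and a grey band over the 8 arrays of this comparison. Both banded arrays of BSG loop 1 lie near 0 (0.0242 and -0.0961), below every array outside the band.

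No gene passed the adjustment for a difference between the strains in the change from 8 to 12 weeks. The 6 oligonucleotides with the smallest p for it are described here by their values, and 5 of them are chemokine, macrophage or blood cell genes. *Ccl2*, the chemokine that draws monocytes into damaged tissue, had summed log ratios of 1.05 and 1.18 in the BSG loops and of -2.18 and -1.36 in the GSG loops. Both BSG loops were above 0 and both GSG loops below it. The strain means were 1.12 and -1.77, and their difference was 2.89 ± 0.38 (moderated SE, 2 loops per strain; limma adjusted p = 0.287 over all oligonucleotides). Each SE given here is moderated by limma, which draws the spread of an oligonucleotide towards one pooled over all of them. *Ccl7*, a monocyte chemokine of the same gene cluster, had 0.84 and 1.10 in BSG and -0.84 and -0.61 in GSG, a difference of 1.69 ± 0.33 (adjusted p = 0.990). *Lgals3*, the galectin of phagocytic macrophages, had 1.41 and 0.92 in BSG and -1.65 and -0.53 in GSG, a difference of 2.26 ± 0.43 (adjusted p = 0.990). *Adgre1*, which encodes the F4/80 antigen of macrophages, had 1.53 and 0.41 against -1.22 and -0.62, and *Inpp5d*, a phosphatase of blood cells, had 0.95 and 0.92 against -0.38 and -0.42. In these 5 genes the loops of the strains did not overlap, which follows from their choice by the p of this difference. Among all 8129 oligonucleotides, 320 (3.94%) had both BSG loops above and both GSG loops below 0. The sixth oligonucleotide named by its p for the difference, *Ptpn5*, a neuronal tyrosine phosphatase, had strain means of -1.55 in BSG and 0.24 in GSG. Its 2 spots differed by up to 2.34 on these arrays. For the first 5 the largest difference between spots was 1.38 (*Lgals3*), 1.105 (*Ccl2*), 1.08 (*Ccl7*), 0.44 (*Adgre1*) and 0.44 (*Inpp5d*). Each of these lay on the 12 over 10 array of BSG loop 1. In all, 0 oligonucleotides (0%) differed between strains at an adjusted p under 0.05 and 232 (2.85%) at an unadjusted p under 0.05, which is fewer than 1 in 20.

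The later age was in Cy5 in both strains, so that a dye difference of equal size in all loops cancels in the strain difference. Whether its size was equal was not tested. The summed log ratios correlated with the dye term of the fit to all 36 arrays, described below, unequally. The values were 0.221, 0.821, 0.487 and 0.747 in the loops BSG 1, BSG 2, GSG 1 and GSG 2. The closed loop also gives the same contrast of the same mice a second time, as minus the sum of its 7 other arrays. On those other hybridisations the BSG minus GSG difference was 2.46 ± 0.67 for *Ccl2*, 2.53 ± 0.60 for *Lgals3*, 1.53 ± 0.58 for *Ccl7*, 2.09 ± 0.59 for *Adgre1* and 1.74 ± 0.72 for *Inpp5d*. All 5 kept the sign and, within the errors, the size, whereas *Ptpn5* turned from -1.78 to 1.80. Over all oligonucleotides the 2 differences were nearly uncorrelated (r = -0.0688, n = 8129, a description, since the points share the mice). In a fit to all 36 arrays with a term for a constant dye effect per oligonucleotide, called the whole-loop value below, the differences were 2.79 ± 1.11 for *Ccl2*, 2.32 ± 0.92 for *Lgals3* and 1.94 ± 0.74 for *Adgre1*, and 0 of 8129 passed. The mice are the same on both routes, so that this repeats the measurement and not the animals. Without GSG loop 1 the adjusted p of all 6 named genes was 1.00, and without GSG loop 2 that of *Ccl2* was 0.0654. When the 9 arrays of each loop were first combined into 1 value per loop, a way chosen after seeing the data, *Ccl2* alone passed (limma adjusted p = 0.0129). It also passed alone with the replicate number as a block (limma adjusted p = 0.0170), likewise chosen after seeing the data. That number is only a name of the loops, so that the block fit is no separate evidence. Neither is the combined value, which contains the sum by which *Ccl2* was chosen.

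The lower values in the GSG loops came at different steps. For *Ccl2* the 10 over 8 array gave -2.19 in GSG loop 1 and 0.59 in GSG loop 2, and the 12 over 10 array gave 0.00 and -1.95. *Lgals3* had -1.83 and 1.16 at the first step and 0.17 and -1.70 at the second, and *Adgre1* had -1.33 and 0.79, then 0.11 and -1.42. In GSG loop 1 the drop lay between the mice of 8 and 10 weeks, and in GSG loop 2 between those of 10 and 12 weeks. The 2 spots of *Ccl2* read -2.21 and -2.16 on the first of these arrays and -1.92 and -1.98 on the second. In the BSG loops the steps of *Ccl2* were 1.11 and 0.32, then -0.06 and 0.86, and on the 12 over 10 array of BSG loop 1 its 2 spots read -0.62 and 0.49. In GSG loop 1 the 8-week mouse had the highest *Ccl2*, *Lgals3* and *Adgre1* of all 9 ages, and relative to it the 20-week mouse was at -0.64, -1.79 and -1.44.

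**Figure D2:**
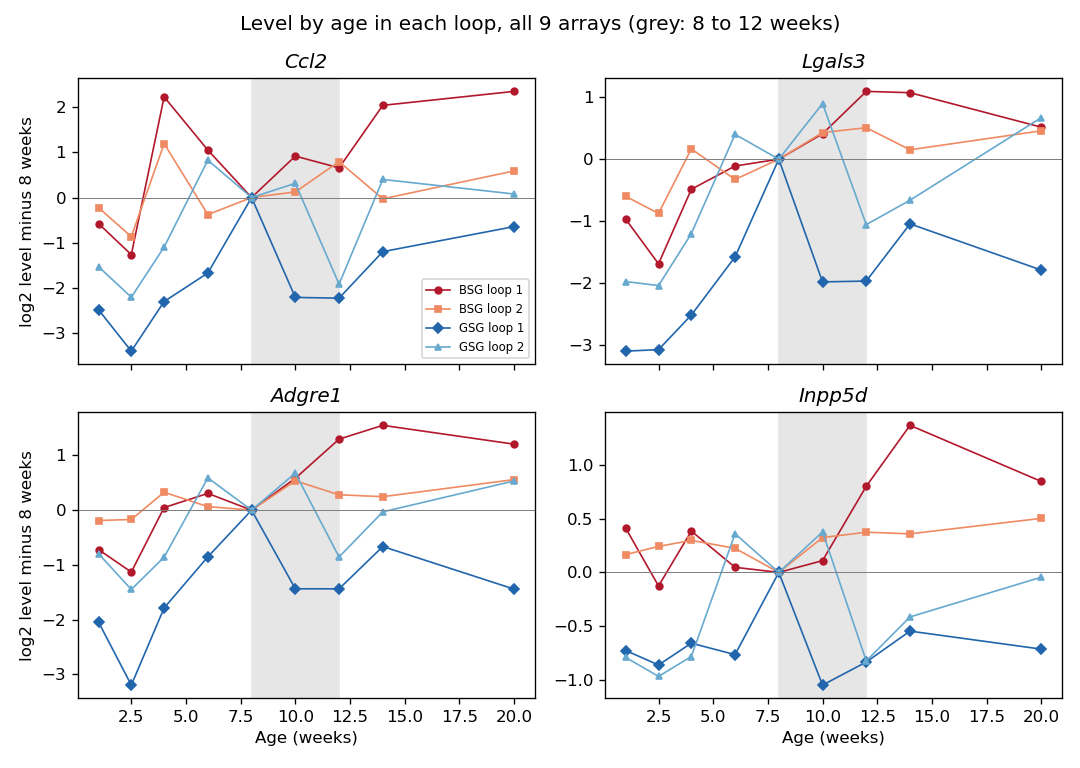
Level of *Ccl2*, *Lgals3*, *Adgre1* and *Inpp5d* (y axes, log2 relative to the 8-week mouse of the same loop, least squares over all 9 arrays of a loop) against age in weeks (x axis), with 1 line per loop, 1 mouse per point and a grey band from 8 to 12 weeks. At 12 weeks *Ccl2* lay at 0.66 and 0.79 in the BSG loops and at -2.22 and -1.91 in the GSG loops, and GSG loop 1 drops to the 10-week mouse, GSG loop 2 to the 12-week mouse.

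The inflammation list holds 12 genes, namely those that the study selected with arrays of this series, under their current symbols, and *Lyz2*, a lysozyme gene close to *Lyz1* that was added here. Its selected members are no independent evidence of direction. Of the 12, 11 had a higher summed log ratio in BSG than in GSG, where 3702 of all 8129 (45.5%) did, and the exception was *Lyz2* (difference -0.27). For 8 of the 12 the unadjusted p of the difference was under 0.05 with BSG higher, where the share of all oligonucleotides was 1.41%. None passed the adjustment. Besides *Lgals3* they were *Lyz1* (difference 1.60), *Mpeg1* (1.81), *S100a4* (1.17), *Sirpa* (1.07), *Clec7a* (1.30), *Ccl9* (0.91) and *Ccl6* (1.03). The loop medians of the list were 0.77 and 1.00 in BSG and -0.50 and 0.22 in GSG, and by the 7 other arrays 11 of 12 were again higher in BSG, where 58.8% of all were. Of 27 macrophage genes, 20 were higher in BSG, 8 of them with an unadjusted p under 0.05. Those 8 were *Adgre1*, the integrin *Itgb2* (1.58), the lysosomal genes *Gpnmb* (1.88), *Ctss* (1.73), *Lgmn* (1.35) and *Ctsk* (1.24), the adaptor *Tyrobp* (1.38) and its receptor *Trem2* (1.24). The loop medians of the macrophage list were 0.46 and 0.21 in BSG and -0.65 and 0.09 in GSG, so that GSG loop 2 lay close to 0. Without GSG loop 1 the median difference of the list was 0.23 instead of 0.64. Other markers did not all follow. *Cd68*, a macrophage lysosomal protein, had 0.94, 1.04, 0.57 and 0.21 in the 4 loops, and *Lyz2* had -0.44, -0.03, 0.44 and -0.36. *Retnla*, a gene of alternatively activated macrophages, had 0.47, 1.06, 0.93 and 0.65. In whole muscle, fewer cells of a type and less RNA per cell cannot be told apart.

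**Figure D3:**
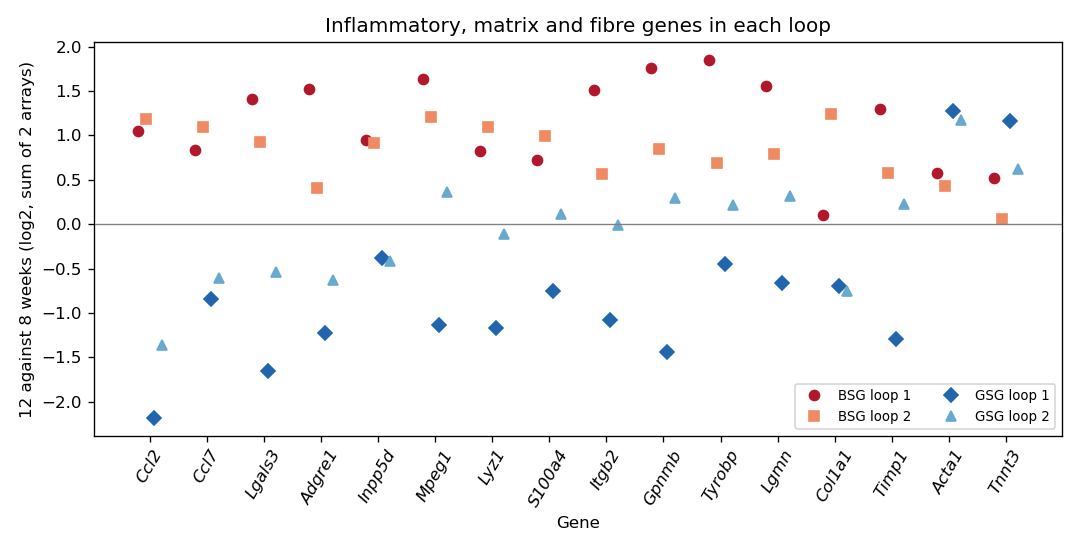
Summed log ratio of 12 against 8 weeks (y axis, log2) of 16 named genes (x axis) in each of the 4 loops, 1 point per loop. The *Ccl2*, *Ccl7*, *Lgals3*, *Adgre1* and *Inpp5d* points of both BSG loops lie above 0 and those of both GSG loops below it, and *Acta1* and *Tnnt3* are above 0 in all 4 loops.

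Of 57 extracellular matrix genes, 37 were higher in BSG, and for 3 the unadjusted p was under 0.05. The median difference of this list was 0.14, and 0.04 without GSG loop 1. *Col1a1*, a chain of type I collagen, had 0.10 and 1.24 in BSG and -0.69 and -0.75 in GSG, with a difference of 1.40 ± 0.42 (limma adjusted p = 0.990) that was 3.17 ± 0.56 by the 7 other arrays. *Timp1*, an inhibitor of matrix metalloproteinases, differed by 1.47 and *Col14a1* by 0.97. Of 37 cell cycle genes, 25 were higher in BSG, 3 of them with an unadjusted p under 0.05 (*Bub1*, *Ccnb2* and *Mcm3*), and *Top2a* and *Foxm1* were lower with an unadjusted p under 0.05, where the share of all with GSG higher was 1.44%. Without GSG loop 1 the median difference of the cell cycle list was -0.03. In the fibre and energy lists more members were lower in BSG by the sum, where 4427 of all (54.5%) were. Of 14 fast fibre genes 13 were lower in BSG, of 34 genes of the respiratory chain and citric acid cycle 30 were, and of 29 genes of glycolysis and glycogen 24 were. For the respiratory genes this rested on BSG loop 1, the loop whose spots disagreed: without it the median difference was 0.10 instead of -0.41. The glycolysis median was -0.02 without that loop instead of -0.29. By the 7 other arrays 58.8% of all oligonucleotides were higher in BSG, with a median difference of 0.15. On that route the respiratory genes split into 17 higher and 17 lower in BSG (median -0.03), and 19 of 29 glycolysis genes were higher in BSG (median 0.29). The respiratory median thus stayed below that of all, and the glycolysis median did not. Of the fast fibre genes, 11 of 14 were lower in BSG on that route too (median -0.51). *Per1*, a clock gene that follows the time of day, had -1.73 and -0.67 in BSG and -0.25 and 0.42 in GSG, and 14 of 16 clock genes were lower in BSG (median difference -0.39). By the 7 other arrays 9 of 16 were higher in BSG (median 0.19), near the 58.8% and the median of 0.15 of all oligonucleotides. Per the study, the time of day at sacrifice was alike within a strain and age and differed between strains and ages. It therefore cannot be told apart from age or strain in these values.

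The mean change over all 4 loops was tested next. Of 8129 oligonucleotides, 5 (0.0615%) passed an adjusted p of 0.05, 1 higher and 4 lower at 12 weeks, and all 5 had the same sign in the 4 loops. *Nfat5*, a transcription factor of the osmotic stress response, was the only one with a gene symbol. Its summed log ratios were -1.42, -1.29, -0.97 and -1.34 in the loops BSG 1, BSG 2, GSG 1 and GSG 2. The mean was -1.25 ± 0.15 (moderated SE, n = 4; limma adjusted p = 0.0335). By the 7 other arrays the same contrast was 3.83 ± 0.55, of the opposite sign, and the whole-loop value was -0.12 ± 0.20. The other oligonucleotides for *Nfat5* gave means of 0.05 and 0.03. The other 4 carried no gene symbol. Oligonucleotide LGTCmuOLIs2_1383 had -5.35, -5.26, -3.12 and -5.04, and LGTCmuOLIs2_1725 had -4.72, -4.57, -3.05 and -4.78. By the 7 other arrays they read 15.4 and 13.9. Of the 4 unnamed, 3 stood at place 15 of a printed block, and 192 of the 192 oligonucleotides at the first 16 places of the blocks lacked a symbol.

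**Figure D4:**
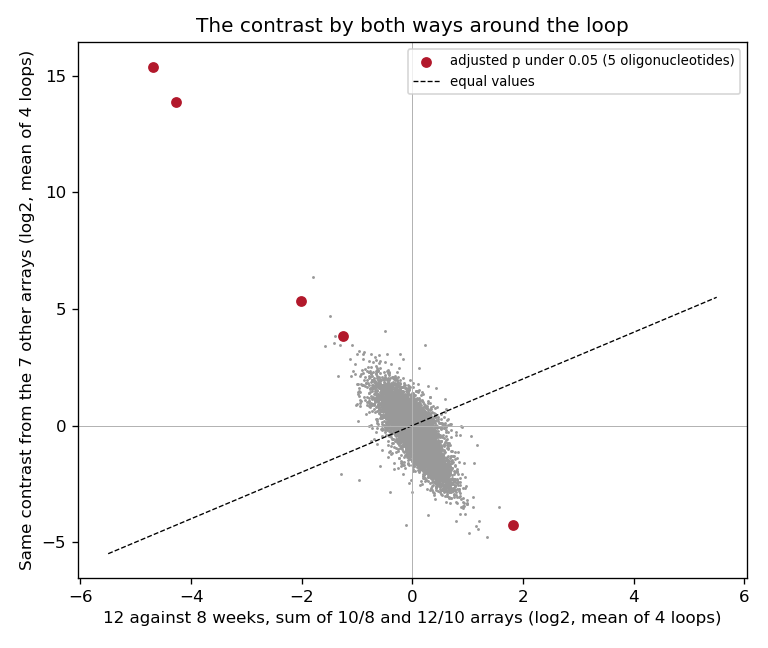
Log2 ratio of 12 against 8 weeks from the sum of the 10 over 8 and 12 over 10 arrays (x axis) against the same contrast of the same mice from the 7 other arrays of each loop (y axis), means of 4 loops, 1 point per oligonucleotide, with the 5 that passed in red and equality as a dashed line. Points fall along a line of opposite slope (r = -0.776), and all 5 red points have opposite signs on the 2 axes.

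This reversal was general. Of the 1362 oligonucleotides with an unadjusted p under 0.05 in the mean of 4 loops, 1311 had the opposite sign by the 7 other arrays, and of all 8129 it was 6229. The correlation of both values was -0.776 over the 8129 oligonucleotides (a description, since the points share the mice), and -0.195, -0.730, -0.346 and -0.614 within the loops BSG 1, BSG 2, GSG 1 and GSG 2. A constant Cy5 over Cy3 difference enters the sum of 2 arrays and, with the other sign, the route over the 7 others, while a change between the mice enters both with the same sign. By the 7 other arrays 2503 oligonucleotides (30.8%) passed, and the dye term of the whole-loop fit passed for 2936 (36.1%). The later age carried Cy5 on all 8 arrays, so that age and dye cannot be told apart within them. In the whole loop each mouse was once in each dye and a constant dye effect cancels. There 0 of 8129 (0%) passed, the smallest adjusted p was 0.786, and 187 had an unadjusted p under 0.05. The whole-loop estimate had a median SE of 0.168, and for 7896 oligonucleotides (97.1%) its 95% interval lay within a 2-fold change in either direction. The values below are therefore given by both measures.

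By the rule for naming, 12 genes with a higher value in all 4 loops were taken by the smallest unadjusted p, since no gene with a symbol passed in this direction. They were *En1*, *Hspb8*, *Arc*, *Col3a1*, *Pygm*, *Chia1*, *Cyp2c37*, *Gadd45a*, *Golga4*, *Mbd2*, *Cbx5* and *Rara*, with means of 0.76 to 1.35 and adjusted p of 0.0861 to 0.138. *Pygm*, the muscle glycogen phosphorylase, had 0.56, 1.14, 1.17 and 0.79, with a mean of 0.91 ± 0.17, whereas its whole-loop value was 0.02 ± 0.25. *Hspb8*, a small heat shock protein of the muscle, had 0.73, 1.20, 0.99 and 0.84, a mean of 0.94 ± 0.15, and 0.24 ± 0.26 over whole loops. *Col3a1*, a fibrillar collagen, had 0.59, 0.87, 0.95 and 1.32, a mean of 0.93 ± 0.17, and 0.37 ± 0.31 over whole loops. *En1*, a homeobox gene, had the highest mean of these, 1.35 ± 0.20, and -0.01 ± 0.27 over whole loops. In all 12 genes the 7 other arrays had the opposite sign. The different oligonucleotides of a gene did not always go together. *Mbd2*, a reader of methylated DNA, had means of 0.76 and -0.43 by its 2 oligonucleotides, and *Rara*, a retinoic acid receptor, had 0.83 by the one named and -0.61 by the lowest of its others.

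Besides *Nfat5*, the 11 genes taken in the same way with lower values were *Galnt4*, *Plau*, *Slc6a9*, *Lime1*, *Hao2*, *Tcp10b*, *Cd46*, *Elovl2*, *Lipa*, *Slit2* and *Rhbdf1*, with means of -1.42 to -0.78 and adjusted p of 0.0861 to 0.138. *Plau*, the urokinase that activates plasminogen, had -1.29, -1.27, -0.74 and -0.97, a mean of -1.07 ± 0.16, and -0.32 ± 0.24 over whole loops. *Lipa*, the lysosomal acid lipase, had -0.55, -0.83, -1.18 and -0.73, a mean of -0.82 ± 0.16, and -0.41 ± 0.18 over whole loops. *Hao2*, a peroxisomal hydroxy acid oxidase, had -0.69, -0.91, -1.40 and -0.71, a mean of -0.93 ± 0.17, and -0.49 ± 0.14 over whole loops (95% interval -0.78 to -0.19, adjusted p = 1.00). *Tcp10b*, a gene of the mouse t complex, had -1.19, -1.31, -0.67 and -0.60, a mean of -0.94 ± 0.18, and -0.54 ± 0.12 over whole loops, the smallest p of that fit (9.67e-05, adjusted p = 0.786). All 11 had the opposite sign by the 7 other arrays.

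Further genes were chosen after their values were seen, from those with the smallest whole-loop p, and none passed. For *Crym*, *Cry2* and *Per1* both routes had the same sign, which their choice favours, since the whole-loop value combines both routes. *Crym*, a thyroid hormone-binding crystallin of muscle, had -0.94, -0.55, -1.06 and -0.45, a mean of -0.75 ± 0.17, with -0.67 ± 0.35 by the 7 other arrays and -0.73 ± 0.20 over whole loops (limma adjusted p = 1.00). *Cry2*, a repressor of the circadian clock, had 0.35, 0.13, 0.70 and 0.17, a mean of 0.34 ± 0.16, with 0.54 ± 0.33 by the others and 0.38 ± 0.12 over whole loops. *Per1* had a mean of -0.56 ± 0.30, with -1.05 ± 0.40 by the others and -0.67 ± 0.23 over whole loops, although GSG loop 2 was at 0.42. *Thbs2*, a matrix protein of the thrombospondin family, had -0.19, -0.01, -0.98 and -0.14 and a whole-loop value of -0.46 ± 0.15. *Ulk1*, the kinase that starts autophagy, had 0.31, 0.64, 1.26 and 0.36 and 0.44 ± 0.15 over whole loops.

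The 33 gene lists held 649 measured genes, and no member passed in the mean of 4 loops. Counts below are of unadjusted p under 0.05, which 705 oligonucleotides (8.67%) reached with higher and 657 (8.08%) with lower summed values at 12 weeks, and 99 (1.22%) and 88 (1.08%) over whole loops. The median of all 8129 was 0.00 by the sum and -0.03 over whole loops. Among fast fibre genes, 11 of 14 were higher by the sum, with the smallest p for the troponin *Tnnc2* (mean 1.21), the skeletal actin *Acta1* (0.86) and the calcium store protein *Casq1* (0.66). The list median was 0.59 by the sum, -2.48 by the 7 other arrays and -0.05 over whole loops, where 0 of 14 had a p under 0.05. Of 11 slow fibre genes 1 was higher, the slow troponin *Tnnc1* (1.11), and 1 lower, the myoglobin gene *Mb* (-0.53), with medians of 0.22 and -0.11. Of 25 genes of the Z-disc and sarcomere cytoskeleton 6 were higher (*Ankrd1*, *Myoz1* and *Ankrd2* with the smallest p) and 1 lower (*Myom2*), with medians of 0.37 and -0.10. Among those, *Ankrd1*, a stress-induced ankyrin repeat protein, had 0.59 by the sum, 0.58 by the others and 0.59 ± 0.44 over whole loops. Of 21 genes of calcium handling 4 were higher (*Fkbp1a*, *Casq1* and *Atp2a1* among them) and 1 lower (*Ryr1*). Of 19 genes of the dystrophin-associated complex 7 were higher, with *Cav3*, *Dmd* and *Sgca* first, and medians of 0.32 and -0.03. A second oligonucleotide for *Dmd*, the dystrophin gene, had -0.76 against 0.68 for the one in the list.

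**Figure D5:**
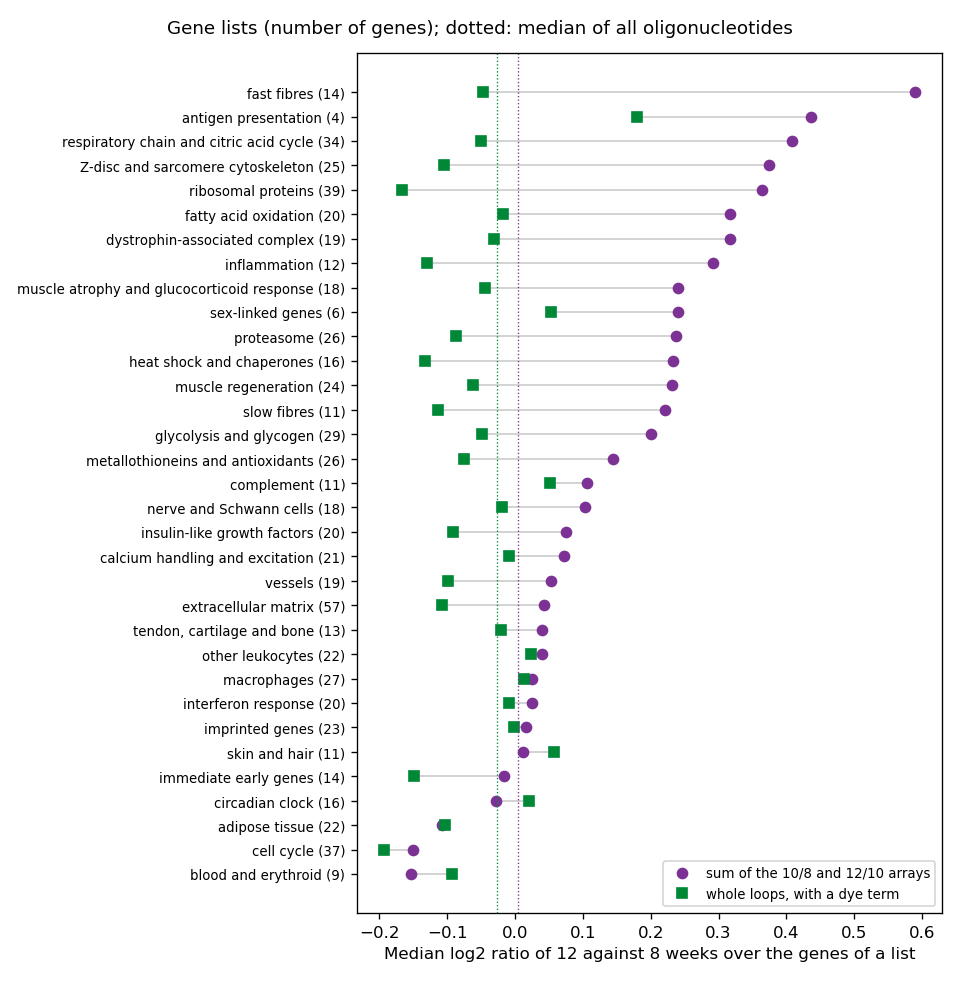
Median log2 ratio of 12 against 8 weeks over the genes of each list (x axis), by the sum of the 10 over 8 and 12 over 10 arrays (circles) and by whole loops with a dye term (squares), with the number of genes per list in brackets and dotted lines at the medians of all 8129 oligonucleotides (0.00 and -0.03). The fast fibre median moves from 0.59 to -0.05 and the ribosomal from 0.36 to -0.17, while the whole-loop medians of all lists lie between -0.19 and 0.18.

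Of 34 genes of the respiratory chain and citric acid cycle 9 were higher by the sum (*Sucla2* 0.84, *Cox7a2* 0.86) and 1 lower (*Atp5k* -0.74), with medians of 0.41 and -0.05. Of 20 genes of fatty acid oxidation 7 were higher, among them the carnitine transferase *Cpt1b* (0.70), the carrier *Slc25a20* (0.67) and the fatty acid transporter *Slc27a1* (0.59), and 1 was lower (*Hadh*), with medians of 0.32 and -0.02. Of 29 genes of glycolysis and glycogen 7 were higher, among them *Pygm*, *Pgk1* (0.81) and *Ldha* (0.73), and 2 were lower (*Pygl* and *Hk2*), with medians of 0.20 and -0.05. Of 39 ribosomal protein genes 16 were higher, with *Rps3* (0.68), *Rpl30* (0.53) and *Rpl6* (0.68) first, and medians of 0.36 and -0.17. All 39 had opposite signs by the sum and by the 7 other arrays. Of 26 proteasome genes 5 were higher (*Psmc2*, *Psma5* and *Psmc5* first), of 26 metallothionein and antioxidant genes 4 (*Txn1*, *Gclm* and *Txnrd1* first), and of 16 heat shock genes 1 (*Hspb8*). Over whole loops no gene of these 7 lists had a p under 0.05.

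Of 27 macrophage genes 2 were higher by the sum (*Retnla* 0.78 and *Cd68* 0.69) and 1 lower (*Ctsz* -0.48), with medians of 0.03 and 0.01. Of the 12 genes of the inflammation list 2 were higher, the chemokine *Ccl8* (0.89 by the sum, 0.67 ± 0.35 over whole loops) and the invariant chain *Cd74* (0.68 and 0.14 ± 0.23). Of 4 antigen presentation genes 2 were higher, *B2m* (0.74), which encodes the light chain of class I molecules, and *Cd74*. Of 11 complement genes 2 were higher (*C1qa* and *Serping1*), of 20 interferon-responsive genes 2 were higher (*Ifit3* and *Iigp1*) and 1 lower (*Irf7* -0.71), and of 22 genes of other leukocytes 1 was lower (*Camp*). Over whole loops no member of these lists had a p under 0.05.

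In the lists of repair, 6 of 24 regeneration genes were higher and 4 lower, with *Mybph*, *Ankrd1* and *Pax3* first and medians of 0.23 and -0.06. *Mybph*, a myosin-binding protein of regenerating fibres, had 0.88, 0.92, 0.25 and 0.65 by the sum and -0.06 ± 0.39 over whole loops. Of 57 matrix genes 6 were higher and 6 lower (*Col3a1*, *Loxl2* and *Col4a1* first), and of 37 cell cycle genes 1 was higher (*Rrm1*) and 3 lower (with *Mcm6* and *Mki67*). Of 20 insulin-like growth factor genes 5 were higher and 1 lower (*Igfbp7*, *Ghr* and *Igf2* first). Of 18 genes of atrophy and the glucocorticoid response 5 were higher and 1 lower. *Cdkn1a*, an inhibitor of the cell cycle, had 0.88, 1.28, 0.17 and 0.46 and a whole-loop value of 0.55 ± 0.30, and *Klf15*, a glucocorticoid-induced factor, had -0.73, -0.92, -2.24 and -0.07 and -0.73 ± 0.34. *Gadd45a*, a growth arrest gene that is induced in denervated muscle, had 0.77 and 0.22 ± 0.27. Over whole loops 2 of the 57 matrix genes were lower with an unadjusted p under 0.05 (list median -0.11). There 2 of the 20 insulin-like growth factor genes were higher (median -0.09) and 1 of the 18 atrophy genes was lower. Of all oligonucleotides 1.22% were higher and 1.08% lower on that measure. The regeneration and cell cycle lists had 0.

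Of 16 clock genes 1 was higher (*Bhlhe40*) and 3 lower, with *Nr1d1* (-0.56 by the sum, -0.07 ± 0.16 over whole loops) and *Tef* (-0.53 and -0.27 ± 0.14) first. Of 14 immediate early genes 1 was lower (*Egr1*). Of 23 imprinted genes 3 were higher and 2 lower. Over whole loops 1 clock gene was higher and 1 lower with an unadjusted p under 0.05, and 1 imprinted gene was higher. *Igf2*, a fetal growth factor, had -0.43 by the sum and -0.10 ± 0.18 over whole loops, *Igf2r* had 0.46 and 0.34 ± 0.14, and *Sgce*, the epsilon-sarcoglycan, had 0.40 and -0.02 ± 0.13. Among the lists of other cell types, blood genes had 22.2% higher and 22.2% lower by the sum, where all oligonucleotides had 8.67% and 8.08%. No other of these lists was above 5.26% higher or 9.09% lower. Of 9 blood genes 2 were higher (*Hba-a1* 0.94 and *Fech*) and 2 lower (with *Hbb-bh1*), of 22 adipose genes 1 was higher (*Lipe*) and 2 lower (*Scd1* and *Cidec*), and of 19 vessel genes 1 was higher (*Sox18*) and 1 lower (*Vegfa*). Of 18 nerve, 13 tendon and 11 skin genes 0 had an unadjusted p under 0.05 on either measure, and the sum medians of these 6 lists lay between -0.15 and 0.10. *Fmod*, a tendon proteoglycan, had -1.94, 1.18, 0.32 and -0.38, and *Ckm*, the muscle creatine kinase, had -1.78, 0.27, -0.11 and 0.62, so that BSG loop 1 was the lowest for both.

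*Xist*, the RNA of the inactive X chromosome, separated the loops rather than the ages. Its summed log ratios were -2.88 and 0.33 in the BSG loops and -0.01 and -2.59 in the GSG loops. The drop lay on the 10 over 8 arrays, with -2.68 in BSG loop 1 and -2.70 in GSG loop 2, and the 12 over 10 arrays lay between -0.20 and 0.17. The labels give no sex. The Y-linked *Eif2s3y* had 0.66, 0.66, 0.35 and 0.97 in the same order, and 0.08 ± 0.19 over whole loops. Of the 4 loops, 1 of each strain showed the *Xist* difference, and its part in the other values was not tested.

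Within each strain the calls were fewer still. In BSG 3 oligonucleotides (0.0369%) passed, all lower, and in GSG 2 (0.0246%), both lower. The step from 8 to 10 weeks gave 2 (0.0246%) and the step from 10 to 12 weeks gave 2 (0.0246%), lower in both. Neighbouring arrays of a loop share the 10-week mouse, which enters them with opposite signs. Their correlation over all oligonucleotides was 0.221, 0.512, -0.0289 and -0.322 in the loops BSG 1, BSG 2, GSG 1 and GSG 2. Between loops the summed log ratios correlated from -0.0974 (BSG loop 1 with GSG loop 1) to 0.605 (BSG loop 2 with GSG loop 2), whereas the whole-loop values correlated from -0.212 to 0.0677.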

How the data were processed

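RNA of quadriceps muscle was amplified to cRNA, coupled to Cy3 or Cy5 and hybridised to arrays of 65-mer oligonucleotides printed in duplicate. The labels name GenePix. Per the study's methods the data were normalised with the function all.norm of the package smida. The values deposited by the authors are normalised log ratios, taken as log2, and their base and direction are not given in the sources used here. Here the 2 spots were averaged (16416 spots, 8129 oligonucleotides, of which 6752 had 1 gene symbol), and the 10 over 8 and 12 over 10 arrays of a loop were summed. The 4 sums were tested against 0, with 1 mean per strain for the strain difference, by limma 3.58.1 (lmFit, eBayes) in R 4.3.3, with Benjamini-Hochberg adjustment over all 8129 at 0.05. The same fit was run on minus the sum of the 7 other arrays. The whole-loop fit used all 36 arrays with a dye term. The depth of the signal is unknown, and the number of arrays limits the precision. An exact sign-flip test over 4 loops cannot go below p = 0.125. P-values and SE of the fits to 1 value per loop rest on the spread between loops of single mice, moderated by limma. In the mean of 4 loops the spread of an oligonucleotide had 3 residual degrees of freedom. It was drawn towards a spread pooled over all 8129, with 6.06 prior degrees of freedom. The SE printed are thus not the plain SE of the loop values. P-values of the whole-loop fit, with its SE and intervals, rest on the residual spread between the 36 arrays, moderated in the same way. That fit took the arrays as independent, although neighbouring arrays share a mouse, so that the 2 kinds of SE are not the same measure. Named genes were up to 12 per direction with the same sign in every loop, those that passed first and then by smallest unadjusted p, up to 3 per gene list with an unadjusted p under 0.05, and the 6 smallest p for the strain difference. Where a listed gene had more than 1 oligonucleotide, that with the least difference between its spots was used. The members and gene lists were chosen with earlier results of these data known. The procedure was tested on simulated data. Alternatives were a strain term, all 36 arrays, single arrays as observations, centring, scaling, either spot alone, spots within 1 of each other, array weights and each loop left out.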

Additional observations from a re-analysis of the deposited data

Results flagged for a closer look

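Among 98 named oligonucleotides, 6 had 1 loop far from the other 3 by Dixon's test at 95%. Chance gives about 1 in 20 for unselected normal values. These oligonucleotides were chosen by the p of their mean, many also by the same sign in every loop. That share is therefore no expectation for this set. *Lipe*, the hormone-sensitive lipase, had -0.52 in BSG loop 1, where the nearest loop had 0.84. *Cd74* had 1.41 in BSG loop 2, where the nearest had 0.48. *Atp2a1*, the calcium pump of fast fibres, had -0.12 in BSG loop 2, where the nearest had 0.73. *Tef*, a clock-controlled transcription factor, had -1.10 in BSG loop 2, where the nearest had -0.36. The unnamed oligonucleotides LGTCmuOLIs2_1383 and LGTCmuOLIs2_1725 had -3.12 and -3.05 in GSG loop 1, where the nearest loops had -5.04 and -4.57.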

How the results depend on the processing

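The number of oligonucleotides that passed in the mean of 4 loops was 5, and it was 0 with all 36 arrays, with or without a dye term, 3 with the 8 arrays as observations, 2 after scaling, 1 with first spots, 369 with second spots (320 higher), 68 among those whose spots lay within 1 on every array (41 higher), 628 with array weights (408 higher) and 1 with loop values from all 9 arrays (balanced values). Leaving out each loop gave 2 to 303, the highest without BSG loop 1, and 0 to 1 in the fit to all arrays with the dye term. The count in BSG was 3, and 0 with all 36 arrays, first spots or balanced values. It was 3 to 35 when a loop was left out, the highest without BSG loop 1, and 0 each time in the fit to all arrays with the dye term. The count in GSG was 2, and 0 with all 36 arrays or first spots, 1 with close spots or balanced values, and 2 to 15 when a loop was left out, the highest without GSG loop 2, with 0 to 5 in the fit to all arrays with the dye term. The strain difference gave 0, 1 with balanced values (*Ccl2*) and 0 to 1 when a loop was left out (*Omd*, without BSG loop 2). The step to 10 weeks gave 0 to 16 without a loop, the highest without GSG loop 1, and the step to 12 weeks 0 to 3, and 0 after scaling. The 7 other arrays gave 1399 to 2545 without a loop. The balanced values, the replicate block and the whole-loop fits without a loop were chosen after seeing the data. With the replicate number as a block, 2 passed in the mean, 15 in BSG, 4 in GSG and 1 in the difference (*Ccl2*). Loops of both strains with the same number did not deviate together (r = -0.0727), so that the number is only a name. The cause of these changes was not tested.

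With all 36 arrays, with or without a dye term, and with balanced values, which give the same estimates, 23 named genes reversed from above to below 0: *En1* to -0.0118, *Arc* to -0.0971, *Cyp2c37* to -0.0153, *Myoz1* to -0.184, *Lipe* to -0.143, *Hba-a1* to -0.00979, *Fkbp1a* to -0.0243, *Atp2a1* to -0.243, *Rrm1* to -0.189, *Dmd* to -0.0512, *Sgca* to -0.0678, *Slc27a1* to -0.0589, *Sgce* to -0.0155, *Igfbp7* to -0.116, *Ghr* to -0.0797, *Txn1* to -0.129, *Txnrd1* to -0.0147, *Mybph* to -0.0571, *Psmc5* to -0.110, *Cox7a2* to -0.182, *Rps3* to -0.0170, *Rpl30* to -0.108 and *Rpl6* to -0.0777. None reversed under the other alternatives run.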
